A study of Mus musculus with 6 samples.

Results

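The TCA cycle burns acetyl-CoA in the mitochondrial matrix, and a muscle cell makes that acetyl-CoA either from pyruvate, through the pyruvate dehydrogenase complex, or from fatty acids, through beta-oxidation. Long-chain fatty acids are first bound and joined to coenzyme A, then carried into the matrix as carnitine esters, then shortened in repeated rounds of dehydrogenation, hydration, a second dehydrogenation and thiolysis. Muscle cells are known to raise these enzymes as they differentiate into fibres. The gene set described here holds 41 genes of these steps, chosen by name for their place in the pathway, with earlier results of these data known. All 41 were found in the deposited matrix of 21666 genes, and 40 of them were among the 15518 genes with enough counts to be tested.

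The counts come from RNA-seq of mouse satellite cells, the stem cells of skeletal muscle, kept for 2 days under differentiation conditions. There were 3 libraries from lncMREF knockout (KO) cells and 3 from wild-type (WT) cells. The knocked-out gene encodes a long noncoding RNA. The comparison asks how its loss changes gene expression at this time. The labels used here give no strain, age or sex, no design of the deleted allele, and no word on the animals or cultures behind each replicate. The spread between libraries, on which every p-value rests, may therefore be technical only. The gene of lncMREF was not matched to an identifier, so its own counts are not analysed here.

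Library totals ran from 17919826 to 28430678 counts. Levels are given as CPM, counts scaled to a common library size with TMM factors, and fold changes as log2 of KO over WT with a standard error (SE). A gene was called when its p from edgeR's quasi-likelihood test, adjusted by Benjamini-Hochberg over all tested genes, was under 0.05. The libraries held myogenic cells of both genotypes: Pax7 and Myod1, the defining factors of satellite cells and myoblasts, were counted in every library. Of 6 satellite cell and myoblast markers, the 5 with enough counts to be tested summed to 535 to 553 CPM in KO libraries, against 1905 to 1955 CPM in WT libraries. Of the 5 tested, Myod1, Itga7 and Cdh15 were lower in KO, Pax7 was higher and Myf5 was not called. Markers of other cells and of differentiation differed between the genotypes. The summed level of 8 muscle differentiation markers ranged from 4058 to 4395 CPM in KO libraries, against 18647 to 19397 CPM in WT libraries, and all 8 were lower in KO. The sum of 10 macrophage markers ranged from 359 to 371 CPM in KO and from 108 to 120.2 CPM in WT libraries, and all 10 were higher in KO. For 8 endothelial markers the sums were 77.9 to 83.1 CPM in KO and 312 to 318 CPM in WT libraries, and all 8 were lower in KO. The 7 Schwann cell markers summed to 854 to 872 CPM in KO and 447 to 449 CPM in WT libraries, with 5 of them higher and 1 lower in KO. The 6 tested fibro-adipogenic markers summed to 4360.5 to 4584.8 CPM in KO and 3560 to 3607 CPM in WT libraries. Of these, 3 were higher and 2 lower in KO, and Col3a1 held most of the sum. For 6 smooth muscle and pericyte markers the sums were 541 to 577 CPM in KO and 664 to 697 CPM in WT libraries, with 1 higher and 3 lower in KO. Genes of the mitochondrial genome took 2.07% to 2.3% of counts in KO libraries and 3.97% to 4.18% in WT libraries. These differences move with genotype in the same libraries as every result below, and their part in the results was not tested. In such bulk libraries, fewer cells of a type and less RNA per cell cannot be told apart.

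Most of the set was lower in KO libraries. Of the 40 tested members, 29 were called lower and 7 higher, and 4 were not called. Over all tested genes, 33.0% were called lower and 33.7% higher, so the members' share called lower, 72.5%, was above the background and their share called higher, 17.5%, below it. Higher calls made up 50.5% of all calls, and 66.1% when library sizes were left unscaled, a setting that moved the median of all genes to 0.19 and that of the members to -0.36. The median log2 fold change of the members was -0.53, beside 0.02 over all tested genes. Most shifts were moderate: 3 members, Idh3a, Acsl1 and Acsl4, were lower by over 2-fold, and 9.38% of all tested genes were called lower by that much. With unscaled library sizes, 2 members were lower by over 2-fold. No member was higher by over 2-fold. In 38 of the 40 members the KO and WT libraries did not overlap in CPM, which was also so for 69.4% of all tested genes. Summed over the 40 tested members, the libraries held 3414, 3517 and 3495 CPM in KO, against 5292, 5214 and 5260 CPM in WT. The KO mean was 66.1% of the WT mean. All KO sums lay below all WT sums.

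**Figure D1:**
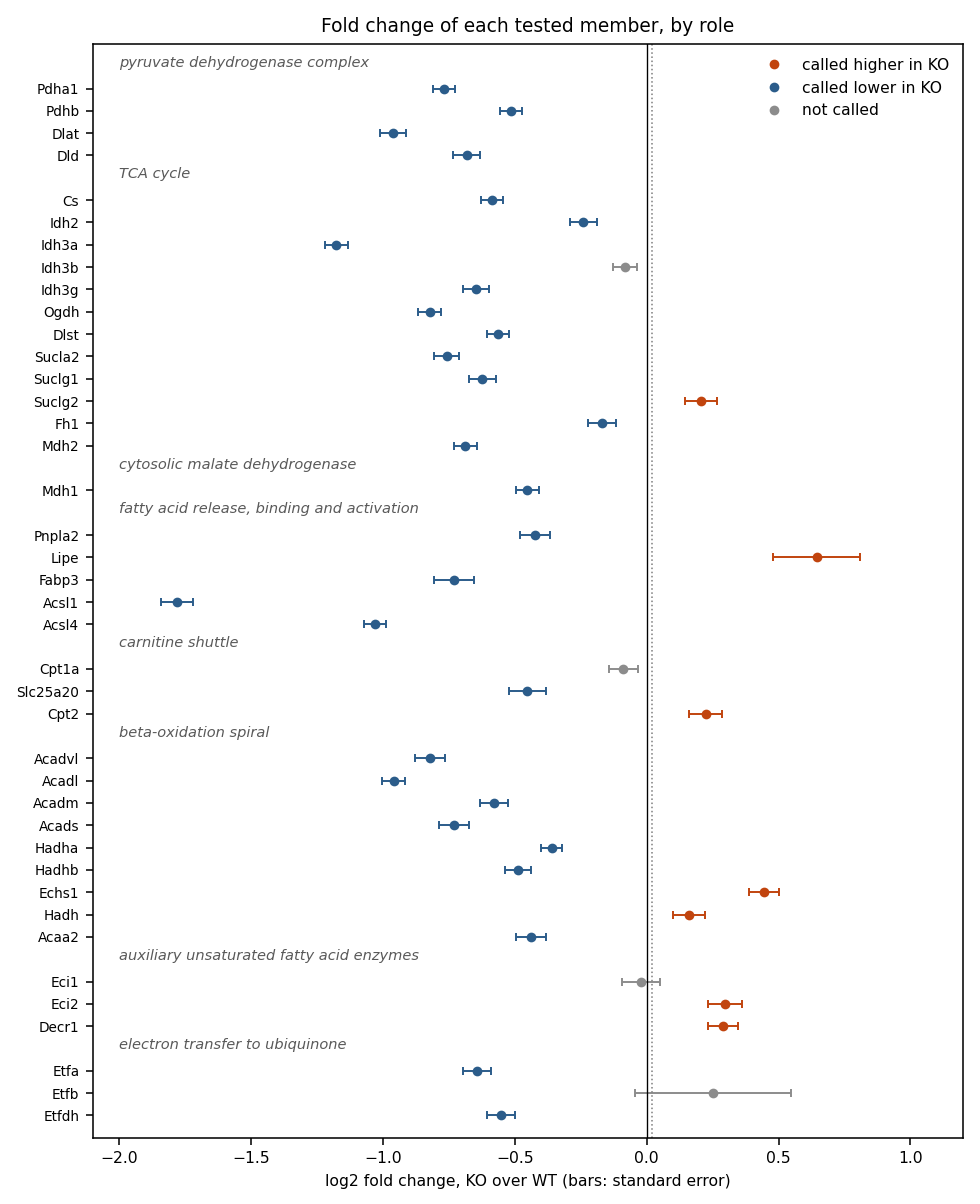
Log2 fold change of KO over WT for each of the 40 tested members, grouped by role, with bars of 1 standard error; the solid line marks no difference and the dotted line the median of all tested genes, 0.02. Members called lower in KO (29) lie left of 0 and members called higher (7) right of it, and Acsl1 lies farthest left at -1.78.

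Both the pyruvate and cycle side and the fatty acid side held members called in each direction. Of the 17 genes of the pyruvate dehydrogenase complex, the TCA cycle and its cytosolic malate dehydrogenase, 15 were called lower and 1 higher, with a median of -0.62. Of the 23 tested genes of fatty acid handling and electron transfer, 14 were called lower and 6 higher, with a median of -0.44. The difference between these groups of genes was not tested. Expressed per kilobase of exon, which allows levels of different genes to be compared, the most abundant members were Mdh2 with 75.4 in KO and 121 in WT libraries, Acadl with 56.3 in KO and 109 in WT libraries and Mdh1 with 66.0 in KO and 90.3 in WT libraries. All 7 members called higher in KO stood at or below 13.1 CPM per kilobase in WT libraries, and 3 of the members called lower, Etfdh, Slc25a20 and Acsl1, did too. The per-kilobase scale divides by all annotated exonic bases and understates genes with long, rarely used exons, such as Echs1 with 8286 bases.

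The pyruvate dehydrogenase complex turns pyruvate into acetyl-CoA and is the gate through which glycolysis feeds the cycle. All 4 of its members were lower in KO libraries. Pdha1 (ENSMUSG00000031299, chrX:160122209-160138413, minus strand), the alpha subunit of the E1 component that decarboxylates pyruvate, had 193, 194 and 196 CPM in KO libraries, against 329.9, 333 and 329.9 CPM in WT libraries. The 3 libraries of each genotype lay within a few CPM of each other and the groups were far apart, giving a fold change (log2) of -0.77 (SE 0.04, adjusted p = 2.65e-18). Its partner in E1, Pdhb, had 123, 128 and 127 CPM in KO libraries, against 184, 176 and 181 CPM in WT libraries, a fold change of -0.51 (SE 0.04, adjusted p = 9.97e-13). Dlat (ENSMUSG00000000168, chr9:50634633-50659780, minus strand), the E2 core that passes the acetyl group to coenzyme A, changed most of the 4, with 83.7, 74.7 and 85.9 CPM in KO libraries, against 160.3, 158 and 157 CPM in WT libraries. KO replicate 2 was the lowest library and no KO library came near the WT range, with a fold change of -0.96 (SE 0.05, adjusted p = 9.68e-19). Dld is the E3 dehydrogenase that re-oxidises E2 and is shared with the oxoglutarate dehydrogenase complex, and it had 111, 125 and 105 CPM in KO libraries, against 186, 184 and 179 CPM in WT libraries, a fold change of -0.68 (SE 0.05, adjusted p = 8.24e-13). For Pdha1, 16.2% of exonic bases overlap some other gene. The largest overlap is with Map3k15, which had no more than 85 counts in any library.

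Citrate synthase and isocitrate dehydrogenase open the cycle. Cs, which joins acetyl-CoA to oxaloacetate, had 265, 247 and 267 CPM in KO libraries, against 393, 385 and 391 CPM in WT libraries. The groups did not overlap, and the fold change was -0.59 (SE 0.04, adjusted p = 1.42e-14). The NAD-dependent isocitrate dehydrogenase is built of an alpha, a beta and a gamma subunit, and the 3 genes moved by different amounts. Idh3a (ENSMUSG00000032279, chr9:54586334-54604661, plus strand), the catalytic alpha subunit, was the member of the cycle that fell furthest, with 109.7, 118 and 114 CPM in KO libraries, against 255, 258 and 259.8 CPM in WT libraries. The highest KO library held less than the lowest WT library by a wide margin, a fold change of -1.18 (SE 0.04, adjusted p = 6.51e-23), or 2.26-fold lower. Idh3g, the gamma subunit, had 77.6, 86.4 and 80.1 CPM in KO libraries, against 128, 132 and 123 CPM in WT libraries, a fold change of -0.65 (SE 0.05, adjusted p = 6.62e-14).

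Idh3b (ENSMUSG00000027406, chr2:130279309-130284547, minus strand), the beta subunit, had 96.9, 96.9 and 100.1 CPM in KO libraries, against 103, 101 and 107 CPM in WT libraries. The groups stood side by side without overlap, and the gene was not called, at -0.08 (SE 0.05, adjusted p = 0.113), with the sign turned (0.09) when library sizes were left unscaled. The ratio of Idh3a to Idh3b per kilobase did not overlap between the genotypes: it averaged 0.784 in KO libraries and 1.68 in WT libraries, and on the log2 scale -0.35 ± 0.0621 in KO and 0.75 ± 0.0322 in WT (SD, n = 3 each). The difference of the log2 ratios, KO minus WT, was -1.10 (SE 0.04). The exact two-sided permutation p was 0.1, the smallest that 3 against 3 libraries can give, and 0.143 after adjustment over the 10 ratios examined. Idh2, the NADP-dependent mitochondrial isocitrate dehydrogenase, had 70.1, 74.1 and 71.9 CPM in KO libraries, against 83.4, 85.0 and 86.8 CPM in WT libraries. Its fold change was -0.24 (SE 0.05, adjusted p = 7.21e-05), and the call was lost with unscaled library sizes (-0.07, adjusted p = 0.213).

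The middle of the cycle runs from 2-oxoglutarate to succinate. Ogdh, the E1 component of the oxoglutarate dehydrogenase complex, had 147, 145 and 152 CPM in KO libraries, against 267, 264 and 255 CPM in WT libraries. All KO libraries lay well below all WT libraries, with a fold change of -0.82 (SE 0.04, adjusted p = 1.36e-18). Dlst, the E2 component of the same complex, fell less, with 166, 175 and 173 CPM in KO libraries, against 253, 252 and 254 CPM in WT libraries and a fold change of -0.56 (SE 0.04, adjusted p = 3.8e-14). The log2 ratio of Dlst to Ogdh was higher in KO libraries by 0.26, with groups that did not overlap (exact permutation p = 0.1, adjusted 0.143).

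Succinyl-CoA ligase splits succinyl-CoA and makes a nucleotide triphosphate; Suclg1 is its common alpha subunit, Sucla2 the ADP-binding beta subunit and Suclg2 the GDP-binding one. Suclg1 had 81.5, 91.9 and 83.0 CPM in KO libraries, against 137, 132 and 126 CPM in WT libraries, a fold change of -0.62 (SE 0.05, adjusted p = 3.28e-13). Sucla2 had 110.2, 119.9 and 103 CPM in KO libraries, against 191, 188 and 185 CPM in WT libraries, a fold change of -0.76 (SE 0.05, adjusted p = 7.5e-16). The alternative beta subunit went the other way. Suclg2 (ENSMUSG00000061838, chr6:95473009-95718800, minus strand) was the only tested member of the cycle called higher in KO, with 42.3, 40.4 and 41.7 CPM in KO libraries, against 35.3, 35.6 and 36.8 CPM in WT libraries. KO libraries lay above WT libraries without overlap, and the fold change was 0.21 (SE 0.06, adjusted p = 0.00321). The ratio of Suclg2 to Sucla2 per kilobase averaged 0.323 in KO and 0.165 in WT libraries. Its log2 was -1.63 ± 0.139 in KO and -2.60 ± 0.0565 in WT libraries, a difference of 0.97 (SE 0.09, exact permutation p = 0.1, adjusted 0.143). A processed pseudogene, Gm15163, matches Suclg2 at 98.9% identity and held a mean of 73 counts, so that some reads could have been shared.

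The last steps regenerate oxaloacetate. Fh1, fumarate hydratase, had 73.7, 83.4 and 83.1 CPM in KO libraries, against 87.5, 93.5 and 89.5 CPM in WT libraries, and its fold change was small, -0.17 (SE 0.05, adjusted p = 0.00473). Its call was lost without KO replicate 1 (log2 fold change -0.12, adjusted p = 0.0644), and the value was 0.00 when library sizes were left unscaled. Mdh2, the mitochondrial malate dehydrogenase, had 255, 277 and 274 CPM in KO libraries, against 434, 420.2 and 443 CPM in WT libraries. The KO libraries lay well below the WT libraries, a fold change of -0.69 (SE 0.04, adjusted p = 2.66e-16). The cytosolic form, Mdh1, which works in the malate-aspartate shuttle, had 163, 173 and 171 CPM in KO libraries, against 243, 223 and 229 CPM in WT libraries, a fold change of -0.45 (SE 0.04, adjusted p = 3.88e-11).

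**Figure D2:**
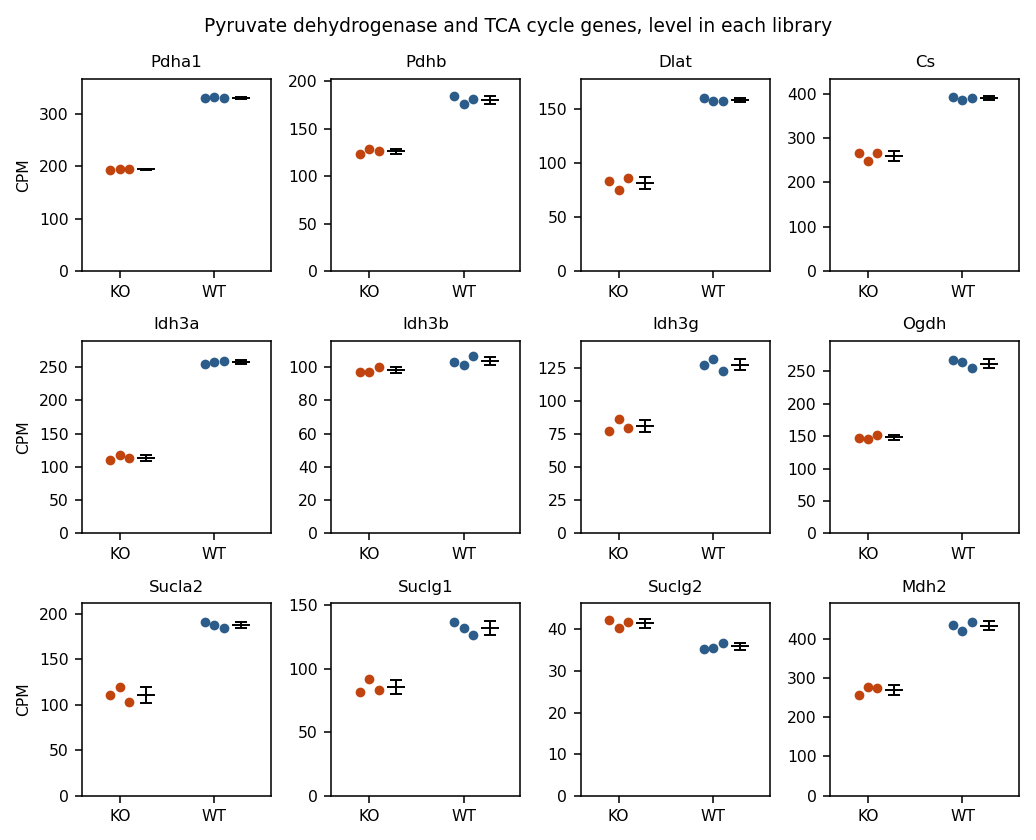
CPM of pyruvate dehydrogenase and TCA cycle members in each library, KO left of WT, with points for libraries and a bar for the mean and SD of 3 libraries; each panel starts at 0. Idh3a stands at 114 CPM in KO against 258 CPM in WT libraries, Idh3b is nearly level, and Suclg2 stands at 41.5 CPM in KO against 35.9 CPM in WT libraries.

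Fatty acids enter the pathway through lipases, a binding protein and acyl-CoA synthetases. Both activating enzymes of the set fell, and Acsl1 fell furthest of all members. Acsl1 (ENSMUSG00000018796, chr8:46471037-46536051, plus strand), the long-chain acyl-CoA synthetase known as the main form for oxidation in muscle, had 25.6, 23.0 and 25.3 CPM in KO libraries, against 85.3, 81.6 and 86.8 CPM in WT libraries. All WT libraries were above all KO libraries by several times the spread within either group, a fold change of -1.78 (SE 0.06, adjusted p = 4.69e-24), or 3.44-fold lower. Acsl4 (ENSMUSG00000031278, chrX:142317993-142390535, minus strand), a synthetase with a known preference for arachidonic acid, had 128, 122 and 126 CPM in KO libraries, against 250.3, 263 and 254 CPM in WT libraries. Its fold change was -1.03 (SE 0.04, adjusted p = 2.43e-21), or 2.04-fold lower, and -0.86 with unscaled library sizes, which is under 2-fold. The Acsl1 to Acsl4 ratio was lower in KO by 0.75 on the log2 scale (SE 0.05, exact permutation p = 0.1, adjusted 0.143). Fabp3, the fatty acid binding protein of muscle and heart, had 31.6, 36.0 and 39.4 CPM in KO libraries, against 61.1, 52.9 and 62.9 CPM in WT libraries. It was lower in every KO library, with a fold change of -0.73 (SE 0.08, adjusted p = 2.58e-08). Of its exonic bases, 19.6% overlap some other gene, with the largest overlap by Zcchc17.

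The lipases of the set moved in opposite directions. Pnpla2, the triglyceride lipase that starts the release of stored fatty acids, had 42.8, 43.0 and 41 CPM in KO libraries, against 58.5, 55.1 and 56.5 CPM in WT libraries, a fold change of -0.42 (SE 0.06, adjusted p = 6.01e-08). Lipe (ENSMUSG00000003123, chr7:25379527-25398710, minus strand), hormone-sensitive lipase, was a low gene, with 4.44, 5.22 and 6.17 CPM in KO libraries, against 3.65, 3.53 and 2.95 CPM in WT libraries. Its raw counts were 98, 131 and 117 in KO libraries, against 82, 67 and 79 in WT libraries. The KO libraries lay above the WT libraries, with a fold change of 0.65 (SE 0.16, adjusted p = 0.000874) and the second-largest SE of the set. Of its exonic bases, 15.6% overlap some other gene, with the largest overlap by an antisense gene, 4732471J01Rik. Whether counting used strand is not stated, so that reads of Lipe and of the antisense gene cannot be told apart. Of 8 markers of adipocytes, where Lipe is abundant, 3 had enough counts to be tested, and Cidec and Lep had no row in the matrix. Among the 3, Fabp4, which capillary endothelium also expresses, was lower at -1.83, Plin4 was higher at 0.74 (adjusted p = 0.00411) and Pparg was not called at 0.42. These 3 summed to 8.85 to 9.74 CPM in KO and 18.0 to 24.5 CPM in WT libraries, and Fabp4 held most of that sum.

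The carnitine shuttle carries activated fatty acids into the matrix, and its genes did not move together. Cpt1a (ENSMUSG00000024900, chr19:3322334-3385733, plus strand), the liver form of the outer-membrane transferase, had 48.5, 51.2 and 50.3 CPM in KO libraries, against 51.5, 53.7 and 54.3 CPM in WT libraries. The groups were adjacent without overlap and the gene was not called, at -0.09 (SE 0.06, adjusted p = 0.169), or 0.08 with unscaled library sizes. Slc25a20, the carrier that exchanges acylcarnitine for carnitine across the inner membrane, had 33.4, 30.9 and 35.6 CPM in KO libraries, against 43.0, 42.6 and 50.3 CPM in WT libraries, a fold change of -0.45 (SE 0.07, adjusted p = 9.19e-07). Cpt2 (ENSMUSG00000028607, chr4:107903981-107923610, minus strand), which re-forms acyl-CoA in the matrix, was called higher, with 36.0, 37.2 and 36.7 CPM in KO libraries, against 32.0, 30.7 and 31.5 CPM in WT libraries and a fold change of 0.22 (SE 0.06, adjusted p = 0.00209). The summed CPM of the 3 tested shuttle genes in KO was 92.4% of that in WT. It was 50.7% for fatty acid release, binding and activation and 71.1% for the beta-oxidation spiral.

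Cpt1b (ENSMUSG00000078937, chr15:89416405-89425863, minus strand), the muscle form of the outer-membrane transferase, could not be judged. Its raw counts were 1, 3 and 9 in KO libraries, against 5, 3 and 3 in WT libraries, too few to be tested. The largest exonic overlap of Cpt1b is with a readthrough gene, Gm44502, which has no row in the matrix. Overlap with any other gene covers 81.4% of the exonic bases of Cpt1b. How many of its reads went uncounted was not tested, and its ratio to Cpt1a had overlapping groups (log2 difference 0.04, SE 0.78, exact permutation p = 1).

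The first step of each round of beta-oxidation is an acyl-CoA dehydrogenase chosen by chain length, and all 4 in the set were lower in KO libraries. Acadvl, for very long chains, had 41.2, 41.3 and 43.7 CPM in KO libraries, against 72.9, 71.6 and 78.1 CPM in WT libraries, a fold change of -0.82 (SE 0.06, adjusted p = 4.06e-15). Of its exonic bases, 42.9% overlap some other gene. The largest overlap is with Dvl2, whose own counts ran from 1027 to 1300 in KO and from 699 to 1018 in WT libraries. Acadl (ENSMUSG00000026003, chr1:66830839-66863277, minus strand), for long chains, was the most abundant dehydrogenase per kilobase and fell furthest among them, with 109.5, 113 and 116 CPM in KO libraries, against 226, 223 and 209.9 CPM in WT libraries. The KO libraries held about as much as each other and none came near the WT range, a fold change of -0.96 (SE 0.04, adjusted p = 5.68e-20). Acadm, for medium chains, had 51.6, 52.9 and 48.1 CPM in KO libraries, against 76.9, 73.6 and 77.5 CPM in WT libraries, a fold change of -0.58 (SE 0.05, adjusted p = 1.66e-11). Acads, for short chains, had 43.2, 50.9 and 48.3 CPM in KO libraries, against 80.2, 76.4 and 80.0 CPM in WT libraries, a fold change of -0.73 (SE 0.06, adjusted p = 1.92e-13).

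The next 3 steps are done by the mitochondrial trifunctional protein for long chains and by separate matrix enzymes for shorter ones. The trifunctional subunits and the matrix enzymes of hydration and dehydrogenation moved in opposite directions. Hadha, the subunit with hydratase and dehydrogenase activity, had 179.9, 185 and 184 CPM in KO libraries, against 231, 239 and 236 CPM in WT libraries, a fold change of -0.36 (SE 0.04, adjusted p = 1.95e-09). Hadhb, the thiolase subunit, had 77.5, 77.2 and 77.6 CPM in KO libraries, against 109.6, 103 and 113 CPM in WT libraries, a fold change of -0.49 (SE 0.05, adjusted p = 7.68e-11). The groups did not overlap for either subunit, and the log2 ratio of Hadha to Hadhb overlapped between genotypes (difference 0.12, SE 0.05, exact permutation p = 0.2, adjusted 0.222). A processed pseudogene, Gm13910, is 99.8% identical to Hadhb over 1428 bases and held 512, 581 and 462 counts in KO libraries, against 726, 585 and 910 in WT libraries. With its counts added, an alternative chosen after seeing the data, the fold change of Hadhb was -0.48 (SE 0.05, adjusted p = 2.84e-11).

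Echs1 (ENSMUSG00000025465, chr7:140105710-140116476, minus strand), the short-chain enoyl-CoA hydratase, was higher in KO, with 68.6, 64.1 and 68.8 CPM in KO libraries, against 51.6, 49.9 and 46.8 CPM in WT libraries. All KO libraries exceeded all WT libraries, a fold change of 0.44 (SE 0.06, adjusted p = 1.76e-08), or 1.36-fold. Hadh (ENSMUSG00000027984, chr3:131233419-131272101, minus strand), the short- and medium-chain hydroxyacyl-CoA dehydrogenase, had 44.3, 41.6 and 42.6 CPM in KO libraries, against 39.0, 36.7 and 39.0 CPM in WT libraries. It was called at 0.16 (SE 0.06, adjusted p = 0.0189), but the call was lost under DESeq2 (adjusted p = 0.0562), without WT replicate 2 (0.12, adjusted p = 0.11) and without KO replicate 1 (0.14, adjusted p = 0.0784). Acaa2, the thiolase of shorter chains, was lower, with 50.5, 58.4 and 57.3 CPM in KO libraries, against 75.4, 75.6 and 74.5 CPM in WT libraries and a fold change of -0.44 (SE 0.06, adjusted p = 1.82e-08).

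**Figure D3:**
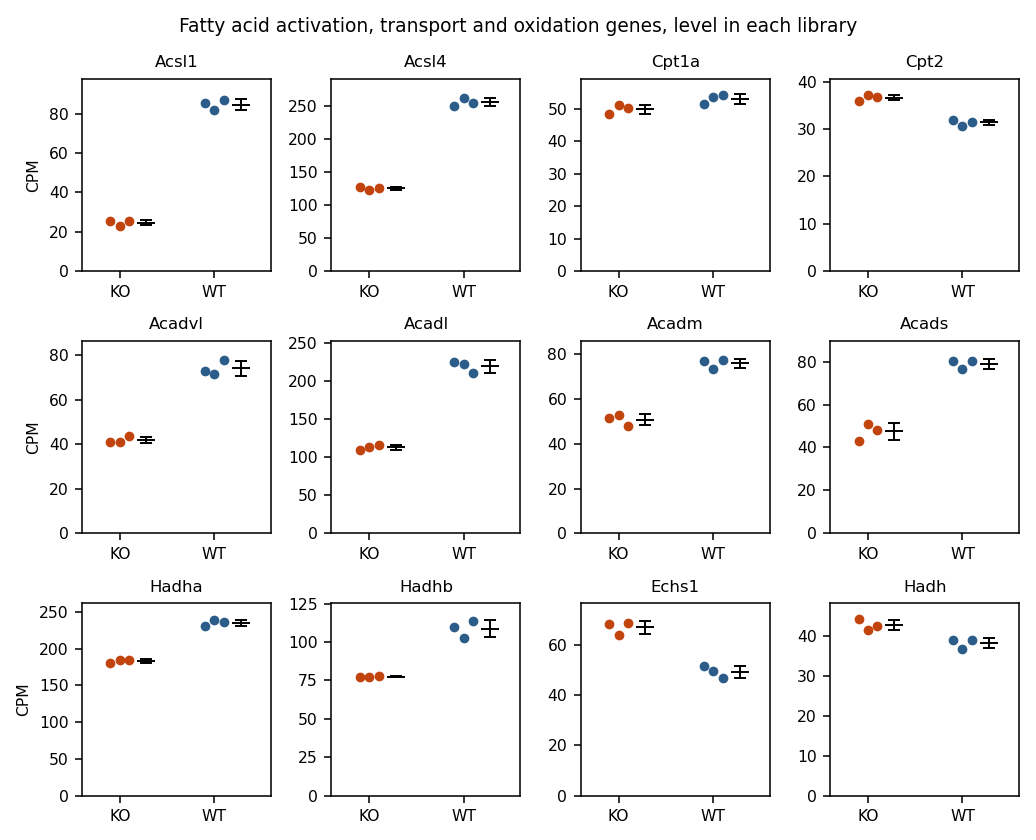
CPM of fatty acid activation, transport and beta-oxidation members in each library, KO left of WT, with points for libraries and a bar for the mean and SD of 3 libraries; each panel starts at 0. Acsl1 and the acyl-CoA dehydrogenases are lower in KO, Cpt1a is nearly level, and Cpt2, Echs1 and Hadh are higher.

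Unsaturated fatty acids need auxiliary enzymes to shift or reduce their double bonds, and 2 of the 3 in the set were called higher. Eci2, an enoyl-CoA isomerase, had 36.1, 36.3 and 37.5 CPM in KO libraries, against 30.9, 30.5 and 28.1 CPM in WT libraries, a fold change of 0.30 (SE 0.06, adjusted p = 0.000138). Decr1, the dienoyl-CoA reductase, had 49.6, 50.2 and 49.8 CPM in KO libraries, against 40.3, 39.9 and 42.1 CPM in WT libraries, a fold change of 0.29 (SE 0.06, adjusted p = 4.61e-05). KO libraries were above WT libraries for both genes. Eci1, the other isomerase, had 25.05, 28.1 and 24.1 CPM in KO libraries, against 27.9, 24.9 and 25.8 CPM in WT libraries, with overlapping groups and no call at -0.02 (SE 0.07, adjusted p = 0.808), or 0.15 with unscaled library sizes.

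Electrons from the acyl-CoA dehydrogenases pass to the electron transfer flavoprotein, whose subunits are Etfa and Etfb, and from it through Etfdh to ubiquinone. Etfa had 61.8, 62.9 and 55.9 CPM in KO libraries, against 93.5, 90.4 and 98.2 CPM in WT libraries, a fold change of -0.64 (SE 0.05, adjusted p = 7.91e-13). Etfdh had 53.9, 52.0 and 51.5 CPM in KO libraries, against 79.5, 76.3 and 75.3 CPM in WT libraries, a fold change of -0.55 (SE 0.05, adjusted p = 2.44e-11). Both genes were lower in every KO library than in any WT library. Etfb (ENSMUSG00000004610, chr7:43444083-43457800, plus strand) had raw counts of only 37, 81 and 72 in KO libraries, against 49, 31 and 88 in WT libraries. Its groups overlapped and it was not called, at 0.25 (SE 0.30, adjusted p = 0.473). Of its exonic bases, 58.3% overlap some other gene, with the largest overlap by Gm45233, which has no row in the matrix. The Etfb level is therefore uncertain in the same way as that of Cpt1b.

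**Figure D4:**
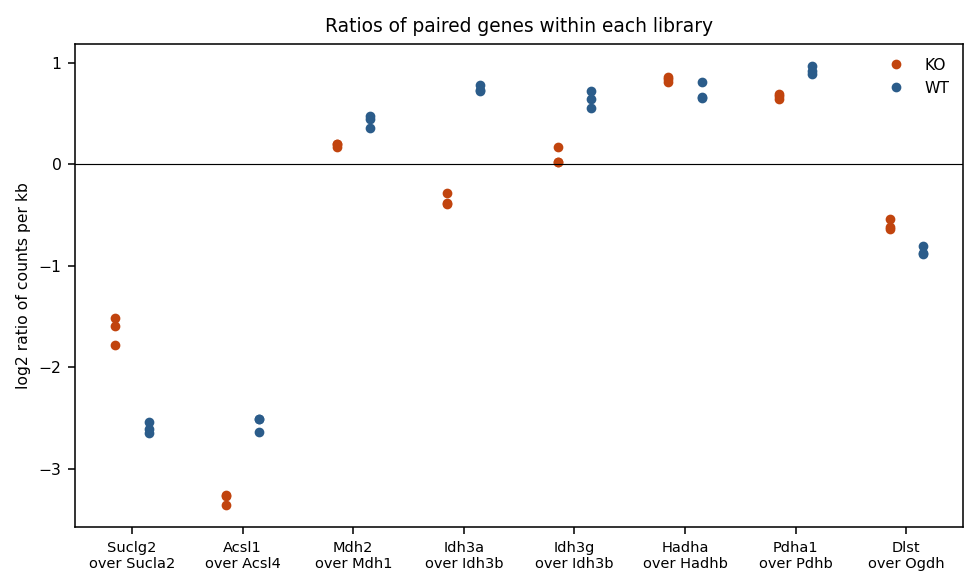
Log2 ratio of counts per kilobase for 8 pairs of isoforms or subunits in each library, KO left of WT, with 1 count added to each gene; the pairs with Cpt1b and Etfb, the low genes, are not drawn. Of the 10 ratios examined, 7 had groups that did not overlap, all of them drawn. Hadha over Hadhb overlapped, as did both pairs not drawn. Etfa over Etfb differed by -0.91 (SE 0.46, exact permutation p = 0.2, adjusted 0.222). The widest separated pairs are Idh3a over Idh3b, lower in KO, and Suclg2 over Sucla2, higher in KO by 0.97.

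The start regions of the members were read from RefSeq promoter windows on GRCm38.p6, each from 250 bases before to 50 after the start, in which 37 of the 41 members had an entry. A core of the NRF1 element, GCGCATGCG on either strand, was present in 3 members, or 8.11%, beside 1.95% of the 27025 genes in the table. All 3, Etfdh, Acadm and Ogdh, were called lower in KO, as were 72.5% of the tested members and 33.0% of all tested genes. They are shown because they were the members with this core, which is written in capitals.
Etfdh chr3:79628867-79628916 minus strand: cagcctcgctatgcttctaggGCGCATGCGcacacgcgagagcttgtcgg
Acadm chr3:153944774-153944823 minus strand: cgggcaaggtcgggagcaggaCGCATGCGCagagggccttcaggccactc
Ogdh chr11:6292522-6292571 plus strand: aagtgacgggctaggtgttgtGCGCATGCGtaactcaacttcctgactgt
The ETS core CCGGAAG was found in 6 members (16.2%), namely Cpt2, Dlst, Idh3b, Idh3g, Lipe and Slc25a20, and in 9.93% of all genes. Of these 6, 3 were called lower, 2 higher and 1 not called. Higher calls made up 17.5% of the tested members and 33.7% of all tested genes. The ERR element TCAAGGTCA was found in no member and in 0.466% of genes, and TGACCTTTG, part of the PPAR direct repeat, in no member and in 0.544%. In a narrower window, from 100 bases before the start, the NRF1 core remained in Ogdh alone (2.7% of members, 1.44% of genes). These matches describe letters in a window and show no binding, and their absence says nothing of a factor.

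Several members share a start region with another gene. Hadha and Hadhb are transcribed away from each other, and 85 bases lie between their outermost annotated starts. They are shown on the strand of Hadhb, with the bases that fall in the RefSeq windows of both genes in capitals, because this stretch lies between the genes of both subunits of one enzyme, and both fell. The RefSeq starts are 272 bases apart and lie outside it.
Hadhb chr5:30155163-30155247 plus strand: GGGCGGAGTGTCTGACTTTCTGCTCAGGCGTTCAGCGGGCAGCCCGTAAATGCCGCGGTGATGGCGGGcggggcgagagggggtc
Of 5 other pairs that start within 1000 bases of each other in opposite directions, with both genes tested, 4 were not called in the same direction. Idh3g was lower at -0.65 and its neighbour Ssr4, 131 bases away, was higher at 0.15 (SE 0.05, adjusted p = 0.0162). Dlst was lower at -0.56 and Prox2, a gene of at most a few CPM whose start lies 74 bases away, was higher at 0.61 (SE 0.23, adjusted p = 0.02). Etfdh was lower at -0.55 and 4930579G24Rik, 421 bases away, was higher at 0.81 (SE 0.16, adjusted p = 0.000101). Mdh1 was lower at -0.45 and Wdpcp, 132 bases away, was not called at -0.07 (SE 0.12, adjusted p = 0.62). Echs1 was the exception, since it and Paox, 677 bases away, were both higher, Paox at 0.55 (SE 0.11, adjusted p = 5.8e-05). Some other gene overlaps 1.71% of the exonic bases of Echs1, 3.7% of Etfdh and 2.03% of Mdh1. In each case the largest overlap is with the neighbour named here. Use of strand in counting is not stated, so some reads of these pairs could have been shared or lost.

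Other genes of the same metabolism were taken as lists by role. Together they held 154 tested genes, of which 83 were called lower, 28 higher and 43 not called, with a median log2 fold change of -0.22. These are 53.9% lower and 18.2% higher, beside 33.0% and 33.7% of all tested genes. The same background shares stand beside each list below. Among 10 further enzymes of the cycle and of pyruvate entry, 7 were lower and 1 higher, or 2 higher with unscaled library sizes, with a median of -0.55. Sdha, the flavoprotein of succinate dehydrogenase, averaged 262 ± 5.85 CPM in KO and 476 ± 3.34 CPM in WT libraries (SD, n = 3) and was lower at -0.86 (SE 0.04, adjusted p = 9.45e-20), and Pcx, which makes oxaloacetate from pyruvate, at -0.92 (SE 0.07, adjusted p = 2.72e-14). Mpc1, a subunit of the mitochondrial pyruvate carrier, was not called, with 16.5 ± 0.958 CPM in KO and 15.7 ± 0.664 CPM in WT libraries and a fold change of 0.07 (SE 0.09, adjusted p = 0.487).

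The kinases and phosphatases that switch pyruvate dehydrogenase off and on were mostly lower, with 5 of 7 called lower, 2 not called and a median of -0.48. With unscaled library sizes, 1 of the 7 was called higher. Pdk4, the kinase known to rise in fasting muscle and to spare pyruvate, had 12.3, 12.3 and 15.8 CPM in KO libraries, against 59.6, 66.3 and 63.0 CPM in WT libraries. All KO libraries were far below all WT libraries, with a fold change of -2.24 (SE 0.08, adjusted p = 1.06e-21). Pdk2, another kinase, was lower at -1.21 (SE 0.07, adjusted p = 7.3e-18) and the phosphatase Pdp1, which acts against them, at -0.75 (SE 0.06, adjusted p = 6.33e-13).

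Lists of lipid genes outside the set held calls in both directions, and in the mitochondrial and peroxisomal lists the number called higher depended on the scaling and on single libraries. In uptake and storage 42.9% were called lower and 50% higher, and among the other synthetases and thioesterases 40% and 40%. The mitochondrial list had 25% and 25% and the peroxisomal list 25% and 16.7%. Both lay below the shares over all tested genes, 33.0% and 33.7%. In uptake and storage, 6 of 14 tested genes were lower and 7 higher, with a median of 0.10. Fabp4, the binding protein of adipocytes and capillary endothelium, was lower at -1.83 (SE 0.12, adjusted p = 8.48e-15) and Dgat2, which makes triglyceride, at -1.10 (SE 0.10, adjusted p = 1.85e-11), whereas Fabp5, the epidermal binding protein, was higher at 0.97 (SE 0.05, adjusted p = 3.58e-15). Cd36, the fatty acid translocase, was lower at -0.36 (SE 0.07, adjusted p = 6.08e-05). Of 10 other acyl-CoA synthetases and thioesterases, 4 were lower and 4 higher (median 0.07), with Acsl6 at -2.33 (SE 0.09, adjusted p = 6.01e-23), Crat, carnitine acetyltransferase, at -1.01 (SE 0.05, adjusted p = 3.13e-19), and the thioesterase Acot2 at 1.51 (SE 0.10, adjusted p = 5.01e-16). Among 16 other mitochondrial genes of acyl-CoA oxidation, 4 were lower and 4 higher, with a median of 0.00. The higher calls numbered 8 with unscaled library sizes and 2 without WT replicate 1, without WT replicate 2 or without KO replicate 1. Acacb, which makes the malonyl-CoA that inhibits carnitine transfer, was lower at -2.05 (SE 0.10, adjusted p = 9.02e-19), Acadsb, a branched-chain acyl-CoA dehydrogenase, was lower at -0.56 (SE 0.06, adjusted p = 5.71e-11), and Cpt1c, the brain form of the transferase, was higher at 0.52 (SE 0.06, adjusted p = 2.29e-09). Of 12 tested peroxisomal genes, 3 were lower and 2 higher (median -0.02), with the import receptor Pex5 at -0.32 (SE 0.05, adjusted p = 1.67e-06) and the thiolase and carrier Scp2 at 0.18 (SE 0.05, adjusted p = 0.00106). Of the peroxisomal genes, 7 were called higher with unscaled library sizes, and 1 under DESeq2 and without WT replicate 2, WT replicate 3 or KO replicate 2.

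Known transcriptional regulators of these pathways were mostly lower, with 8 of 14 called lower, 6 not called and a median of -0.32. With unscaled library sizes, 3 of the 14 were called higher. Ppargc1a, the coactivator PGC-1alpha, had 4.03, 2.75 and 2.69 CPM in KO libraries, against 15.04, 16.1 and 14.9 CPM in WT libraries. The highest KO library held far less than the lowest WT library, a fold change of -2.28 (SE 0.13, adjusted p = 2.93e-17). Of the estrogen-related receptors, Esrrb averaged 0.652 ± 0.260 CPM in KO and 12.6 ± 0.551 CPM in WT libraries (SD, n = 3), a fold change of -4.26 (SE 0.18, adjusted p = 6.84e-21). Esrrg was lower at -1.24 (SE 0.18, adjusted p = 3.7e-07) and Esrra at -0.56 (SE 0.07, adjusted p = 3.77e-09). Ppara, the fatty acid receptor, was counted at 0.741 ± 0.104 CPM in KO and 2.36 ± 0.387 CPM in WT libraries, a fold change of -1.66 (SE 0.27, adjusted p = 1.85e-06). Gabpa, an ETS factor of mitochondrial genes, was lower at -0.28 (SE 0.05, adjusted p = 1.67e-05) and Tfb2m, a mitochondrial transcription factor, at -0.36 (SE 0.07, adjusted p = 4.04e-05).

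The set's median of -0.53 stands beside one of -0.50 for nuclear genes of the respiratory chain, where 18 of 24 were lower and 1 higher. The higher calls of that list numbered 3 with unscaled library sizes, and 2 under DESeq2 and without WT replicate 2 or WT replicate 3. In glycolysis, 13 of 17 tested genes were lower and 1 higher, with a median of -0.40 and larger extremes. The higher gene was Pfkp (0.11, adjusted p = 0.0371), named after its value was seen. No glycolytic gene was called higher under median-of-ratios scaling, DESeq2, no filter or without any 1 of the 6 libraries, and 3 were with unscaled library sizes. The muscle form of phosphofructokinase, Pfkm, at -2.33 (SE 0.05, adjusted p = 7.8e-31), and of enolase, Eno3, at -2.12 (SE 0.04, adjusted p = 1.27e-30), had larger fold changes than any member of the set. Pgam2, the muscle phosphoglycerate mutase, was lower at -1.56 (SE 0.05, adjusted p = 7.67e-26). In the respiratory chain, Cox6a2, the muscle form of a cytochrome oxidase subunit, was lower at -1.54 (SE 0.09, adjusted p = 5.63e-16), Uqcrfs1 of complex III at -0.81 (SE 0.05, adjusted p = 7.25e-13) and Ndufs1 of complex I at -0.80 (SE 0.04, adjusted p = 5.48e-18).

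**Figure D5:**
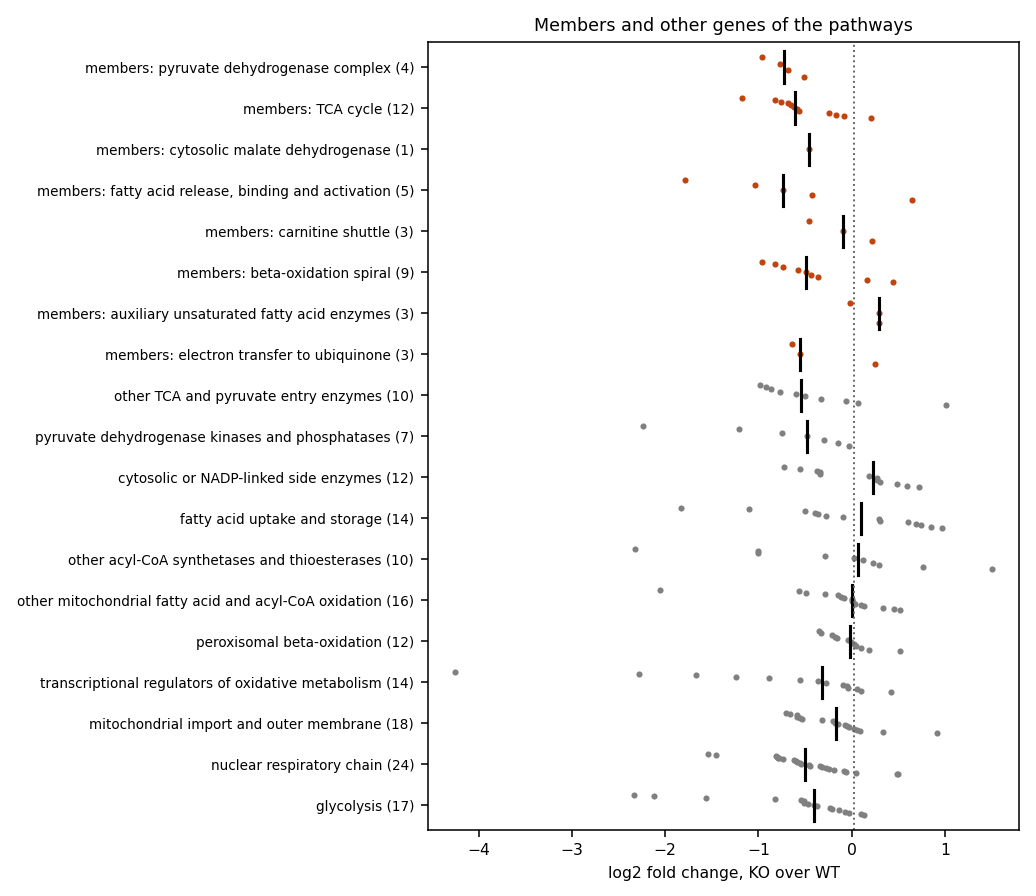
Log2 fold change of KO over WT for every tested gene of the members by role and of the other pathway lists, with a mark at each list's median and a dotted line at the median of all tested genes, 0.02. The pyruvate dehydrogenase, TCA and respiratory chain lists lie mostly left of 0, and the peroxisomal and other acyl-CoA lists spread to both sides.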

How the data were processed

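Per the labels' protocols, total RNA was extracted with TRIzol and sequenced on an Illumina instrument. HISAT2 2.2.1, featureCounts 2.0.1 and mm10 are named in the submitters' processing notes; counting options and use of strand are not stated in the sources used. The authors deposited whole-number counts per Ensembl gene, not normalised, as a matrix of the series and as a table per library. The per-library tables summed to 5501088 to 9136354 counts. For 1 of 38 members compared (mean of at least 200 counts) their mean lay within 0.8 to 1.2 times the matrix mean. The same held for 559 of the 9941 genes compared, or 5.62%. Only the matrix was used, and this disagreement cannot show which of the 2 sources is right.

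Genes were matched to GENCODE M21, filtered with filterByExpr (minimum count 10, minimum total 15), scaled by TMM and tested, KO against WT by label, with edgeR 4.0.16 (quasi-likelihood test, genotype as the only term) in R 4.3.3. The steps were tested on simulated data. CPM were computed here with TMM-scaled library sizes. Ratios used raw counts per kilobase with 1 count added and exact two-sided permutation tests (SciPy 1.17.1), whose smallest possible p is 0.1. Transcripts with at least 95% identity over 200 bases were found with BLAST+ 2.17.0. Replicates differed by more than sampling noise (mean chi-square per gene 3.18 to 5.11). Depth limits low members such as Cpt1b, Etfb and Lipe.

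All members were named. In each other list, the 3 called genes with the largest change and a mean of at least 10 CPM were named, as were Sdha, Pdk4, Mpc1, Cd36, Ppargc1a, Esrra, Esrrb, Esrrg and Ppara; some genes that this rule covers are not reported here. Aldoa was left out, since its symbol maps to more than 1 identifier. The members and lists were chosen with earlier results of these data known. Alternatives were median-of-ratios scaling, unscaled library sizes, no filter, DESeq2 1.42.0, a replicate block, each library left out, a narrower promoter window, and 0.1 count in ratios.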

Additional observations from a re-analysis of the deposited data

How the results depend on the processing

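Of the 40 tested members, all kept direction and call under median-of-ratios scaling, without the low-count filter, with the replicate block, without WT replicate 3 and without KO replicate 2. With library sizes left unscaled, the median of all genes was 0.19 and that of the members -0.36. The members stood 0.56 below all genes (difference -0.56), as in the scaled fit (-0.56). Such scaling shifts all genes by nearly the same amount, so the equal difference is no check of the result. With unscaled sizes, 52 other pathway genes were called higher, against 28, and 2 members were lower by over 2-fold, against 3. Of all calls, 66.1% were then higher, against 50.5%. In that setting Idh3b (0.0874), Fh1 (0.0002), Cpt1a (0.0825) and Eci1 (0.149) changed sign, and Idh2 was no longer called (-0.07, adjusted p = 0.213). Eci1 was also above 0 without WT replicate 1 (0.0127) and without KO replicate 3 (0.0189), in a range of -0.0915 to 0.0189 over the libraries left out. Leaving out each library in turn gave 9766 to 10151 calls over all genes, 28 to 29 members lower, 6 to 7 higher, 3 to 4 lower by over 2-fold and a member median of -0.56 to -0.52; other pathway genes lower numbered 82 to 88 and higher 25 to 28. The log2 ratio of Cpt1b to Cpt1a ranged from -0.67 to 0.58 and was -0.0915 with 0.1 count added. Few counts limit Cpt1b, Etfb and Lipe. The numbers called higher in small lists moved too, as given beside each list, and the cause was not tested. With the replicate number as a block, 29 members were lower, 7 higher and 10209 genes called. Same-numbered libraries of the 2 genotypes deviated together by correlations of 0.00287, -0.0214 and 0.00779, so no pairing by number was seen. The labels do not say whether the numbers pair them. These values cannot decide it, since the spread between libraries may be technical only.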

Other observations

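Side enzymes of the cytosol and mitochondria that act on citrate, isocitrate, malate or aspartate, listed together with mitochondrial carriers, were divided. Of 12 tested, 5 were called lower and 6 higher in KO, with a median log2 fold change of 0.23. Slc25a1, the citrate carrier that supplies cytosolic acetyl-CoA, averaged 162 ± 4.34 CPM in KO and 107 ± 4.18 CPM in WT libraries (SD, n = 3), a fold change of 0.59 (SE 0.05, adjusted p = 7.21e-14). Me2, mitochondrial malic enzyme, averaged 62.7 ± 3.75 CPM in KO and 37.8 ± 2.18 CPM in WT libraries, a fold change of 0.73 (SE 0.06, adjusted p = 9.34e-13). Slc25a12, the aspartate-glutamate carrier of the malate-aspartate shuttle, averaged 50.7 ± 3.92 CPM in KO and 83.5 ± 3.71 CPM in WT libraries and was lower at -0.72 (SE 0.06, adjusted p = 1.94e-13). The other genes called higher, named after their values were seen, were Acly (0.49), Aco1 (0.28), Idh1 (0.30) and Me1 (0.27), and the others called lower were Got1 (-0.34), Got2 (-0.37), Me3 (-0.55) and Slc25a11 (-0.34).

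Of 18 genes of mitochondrial import, chaperones and membrane dynamics, 10 were called lower and 2 higher, with a median of -0.16; with unscaled library sizes, 6 were called higher. The fusion protein Mfn2 averaged 117 ± 3.15 CPM in KO and 189.8 ± 4.84 CPM in WT libraries, a fold change of -0.70 (SE 0.04, adjusted p = 3.15e-16), and the fission protein Dnm1l averaged 85.0 ± 3.49 CPM in KO and 135 ± 5.32 CPM in WT libraries, a fold change of -0.66 (SE 0.05, adjusted p = 1.86e-14). Hspe1, the small subunit of the matrix chaperonin, went the other way, with 125, 113 and 102 CPM in KO libraries, against 57.7, 54.3 and 67.6 CPM in WT libraries, a fold change of 0.92 (SE 0.10, adjusted p = 9.81e-05).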
